A study of Homo sapiens with 8 samples.

Results

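The genes described here code for the factors that start and elongate protein synthesis on the cytosolic ribosome. They were taken as all array probes whose gene symbol begins with EIF1 to EIF6, EEF1 or EEF2, without the Argonaute genes once called EIF2C, the EIF2AK kinases and the EIF4EBP inhibitors. This rule found 109 probes for 59 genes among 41000 probes on the array, and 101 of these probes, for 57 genes, passed the filters on detection and on agreement of the dyes. The rule reads the symbol and no level, but it was chosen with earlier results of these data known. L1236, a human cell line from Hodgkin lymphoma that is grown here as 1 transduced and GFP-sorted population per construct, carried either the empty pMSCV-PIG vector (EV) or that vector holding a miR-155 sponge. A sponge is a transcript whose repeated binding sites draw the microRNA away from its natural targets. From each population, total RNA (T) and the RNA precipitated with an antibody to Ago2 (IP) were hybridised, so that there were 4 RNA samples and 1 per group. Every sample was labelled with Cy3 and with Cy5, and IP and T of a population shared an array. The comparison of IP with T asks which transcripts were bound by Ago2, and the comparison of sponge with EV asks which transcripts differed in the presence of the sponge.

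The microRNA that the sponge was made for is shown because the constructs differ in binding sites for it. Its level and activity were not measured directly on these arrays, so how far the sponge inhibited it is not known from them. From its target transcripts in the Ago2-bound RNA, the study proposes that it was not fully sequestered by the sponge. Its mature sequence, with the seed (bases 2 to 8) in capitals, is given in RefSeq for GRCh38.p14 at chr21:25573983-25574006 on the plus strand.
hsa-miR-155-5p: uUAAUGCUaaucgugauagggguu
Target sites for this seed in the transcripts of translation factors were not analysed here.

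Initiation factors bring the initiator tRNA and the small ribosomal subunit to a capped messenger RNA. The eIF4 group binds the cap and unwinds the leader, eIF3 is the large scaffold on the small subunit, eIF2 carries the initiator tRNA as a GTP complex that eIF2B recharges, and eIF1, eIF1A, eIF5 and eIF5B guide start codon choice and subunit joining. The elongation factors eEF1A and eEF2 then deliver aminoacyl-tRNA and move the ribosome along the message. Messengers of the elongation factors and of some initiation factors begin with a cytosine and a run of pyrimidines, the 5′ terminal oligopyrimidine (TOP) motif, which they share with ribosomal protein messengers. Argonaute proteins hold microRNAs and through them the messengers that the microRNAs pair with.

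Across the 8 channels, 54.1% to 65.8% of spots were well above background, the lowest being sponge T in Cy5, and no spot was saturated. Of the 101 kept probes, 99 were well above background in all 8 channels, and the other 2 in 7 channels. In total 22470 probes passed the filters, for 11203 named genes. The Hodgkin line markers TNFRSF8, CCL17, FSCN1, IRF4, TRAF1 and CD70 were well above background in all 8 channels, as were the B-cell genes CD79A and CD79B and the monocyte gene CD14. The B-cell gene MS4A1 and the T-cell gene CD3D were not well above background in any channel. The T-cell gene CD3E was well above background in 8 channels on 1 probe and in 6 on the other. On neither CD3E probe did both dyes agree, so its level is not used. Each group is 1 RNA sample, so that the comparisons carry no biological replication and no p-value is given. The error printed with an IP/T value is its SD between dye orientations (n = 2 arrays), and that of a difference between populations is its SD between dyes (n = 2 labellings). Both cover labelling and hybridisation only. In bulk RNA, fewer cells with a transcript and less transcript per cell cannot be told apart.

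Translation factor messengers were found on both sides of an equal ratio of IP to T. In EV cells, 12 of the 101 member probes (11.9%) had an IP/T ratio of 2 or more, against 17.5% of all kept probes, and 21 (20.8%) had a T/IP ratio of 2 or more, against 19.0% of all kept probes. The second share was close to that over all probes and the first was below it. This is a description only, since some of the member probes belong to the same gene. In sponge cells the counts were 11 (10.9%, against 17.5% of all kept probes) and 17 (16.8%, against 17.8%). With 1 probe per gene, the kept probe of highest mean signal, 7 of 57 genes had an IP/T ratio of 2 or more (18.1% of all genes did) and 12 had a T/IP ratio of 2 or more (18.8% of all genes did), while 38 lay within 2-fold. IP exceeded T in both dye orientations for 17 genes (39.4% of all genes) and T exceeded IP for 33 (50.5% of all genes). In sponge cells 5 genes had an IP/T ratio of 2 or more (17.7% of all genes did) and 8 a T/IP ratio of 2 or more (17.4% did), and the counts on one side in both orientations were 18 (38.8% of all genes) and 29 (48.1%). The median log2 IP/T ratio over member probes in EV cells was -0.18 ± 0.02, and that over all kept probes was -0.16. With normexp background correction, loess and Aquantile normalisation the median of all kept probes was 0.01 and that of the member probes was -0.17. In sponge cells the member median was -0.08 ± 0.16, an error larger than the value, against -0.13 over all kept probes.

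The genes at the upper end of IP/T were EIF1AD, EIF4A2, EIF4E, EIF4E3 and EIF3E, and those at the lower end were EIF3G, EIF2B2, EIF4G1, EEF1D and EIF3I. Of the 7 genes with IP/T of 2 or more in EV cells, 5 (71.4%) also had it in sponge cells, where 90.7% of such genes overall did, and these were all 5 members called there. Of the 12 with T/IP of 2 or more, 8 (66.7%) also had it, where 81.4% of such genes overall did, and these were all 8 called there. With so few members the shares are a description only. The ratios of the 101 member probes were alike in both populations (Pearson's r across probes 0.981, where all kept probes gave 0.976; probes are not independent and the populations share the procedure).

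**Figure D1:**
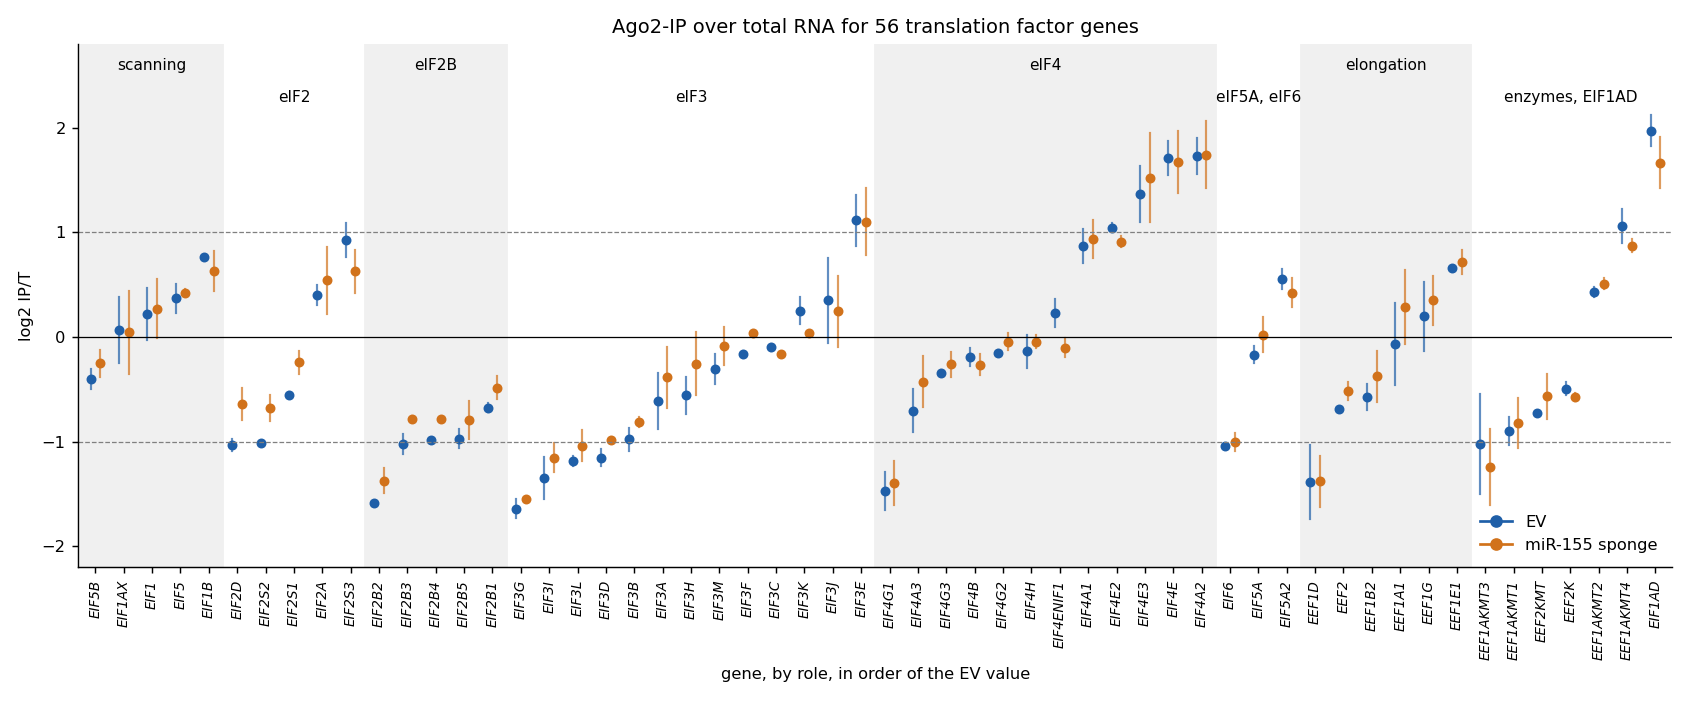
Log2 IP/T ratio (vertical axis) of 56 translation factor genes, 1 probe per gene, grouped by role and ordered by the EV value within a role. Points are means, vertical lines join both dye orientations, blue is EV, orange is sponge and dashed lines mark 2-fold. All 5 eIF2B genes lie below 0 in both populations, whereas eIF4 genes run from -1.47 for EIF4G1 to 1.73 for EIF4A2 in EV cells.

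The eIF4 factors, which bind the cap and open the leader, had the widest range of initiation roles. Their 12 genes ran from -1.47 to 1.73 in log2 IP/T in EV cells with a median of 0.05 ± 0.05. Several subunits of this group have paralogs on the array, whose IP/T ratios could be set side by side.

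EIF4A1 and EIF4A2 code for the paired forms of the helicase subunit of the cap complex, and EIF4A3 for a related helicase of the exon junction complex. The log2 signal of EIF4A2 was 14.18 (Cy3) and 13.81 (Cy5) in EV T, 15.71 and 15.74 in EV IP, 14.08 and 13.46 in sponge T, and 15.52 and 15.50 in sponge IP. Both IP labellings lay above both T labellings in each population. The EV ratio of EIF4A2 was 3.33 (log2 1.73 ± 0.24) and the sponge ratio 3.34 (log2 1.74 ± 0.45). EIF4A1 had signals of 14.56 and 14.28 in EV T, 15.32 and 15.26 in EV IP, 14.57 and 14.18 in sponge T, and 15.30 and 15.32 in sponge IP. Here too the IP labellings stood above the T labellings, by less than in EIF4A2, and the EV ratio was 1.83 (log2 0.87 ± 0.23). EIF4A3 was on the other side, with 14.10 and 13.81 in EV T, 13.31 and 13.20 in EV IP, 14.03 and 13.81 in sponge T, and 13.63 and 13.36 in sponge IP. Its EV ratio was 0.615 (log2 -0.70 ± 0.29), and T exceeded IP in both populations. In EV cells the log2 IP/T of EIF4A2 exceeded that of EIF4A1 by 0.86 ± 0.01, and that of EIF4A3 was lower than that of EIF4A1 (difference -1.57 ± 0.06). In sponge cells the same differences were 0.81 ± 0.20 and -1.36 ± 0.09. Each is larger than its spread over dye orientations. The 4 EIF4A1 probes, at 0.67 to 0.92, all lay below both EIF4A2 probes, at 1.73 and 1.77.

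EIF4E codes for the cap-binding protein, and EIF4E2 and EIF4E3 for related cap-binding proteins. EIF4E signals were 13.11 and 12.84 in EV T, 14.71 and 14.66 in EV IP, 13.13 and 12.65 in sponge T, and 14.62 and 14.51 in sponge IP, so IP was above T throughout. The EV ratio was 3.28 (log2 1.71 ± 0.23) and the sponge ratio 3.19 (log2 1.67 ± 0.42). All 3 cap-binding paralogs had EV ratios over 2. EIF4E2 had an EV log2 IP/T of 1.05 ± 0.07 and EIF4E3 of 1.36 ± 0.38. The EIF4E3 value was 0.76 after normexp, loess and Aquantile and 0.60 after normexp with quantile normalisation, both under 2-fold, and it is a dim probe with an EV T signal of 8.33 and 8.11. EIF4E2 differed from EIF4E by -0.67 ± 0.16 and EIF4E3 from EIF4E by -0.35 ± 0.15 in EV cells, and in sponge cells the latter difference (-0.15 ± 0.19) was within its spread. These differences rest on the brightest of 3 EIF4E probes. Probe A_23_P118649, at 0.98 in EV cells, lay below EIF4E2 and EIF4E3, so that both differences turn sign with it.

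The scaffold proteins that join the cap-binding protein to the ribosome gave the opposite picture for EIF4G1. Its signals were 11.78 and 11.86 in EV T, 10.20 and 10.49 in EV IP, 11.67 and 11.84 in sponge T, and 10.24 and 10.48 in sponge IP, with no overlap between T and IP. T exceeded IP 2.77-fold in EV cells (log2 IP/T -1.47 ± 0.26), and the value was -0.98 after normexp with quantile normalisation. EIF4G3 (-0.34 ± 0.03) and EIF4G2 (-0.15 ± 0.04), a relative that lacks the cap-binding protein's docking region, were nearer to equal. They exceeded EIF4G1 by 1.13 ± 0.29 and 1.32 ± 0.22 in EV cells and by 1.13 ± 0.46 and 1.35 ± 0.41 in sponge cells. The EIF4G2 ratio changed sign (0.01 in EV cells) with loess and Aquantile, where the all-probe median also moved up. EIF4B and EIF4H, which stimulate the helicase, were at -0.19 ± 0.12 and -0.14 ± 0.22, and EIF4ENIF1, the transporter that carries the cap-binding protein into the nucleus, was at 0.23 ± 0.19. By probe, EIF4B ran from -0.61 to -0.06, and the dimmer EIF4H probes were at -0.94 ± 0.15 and -0.48 ± 0.20.

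**Figure D2:**
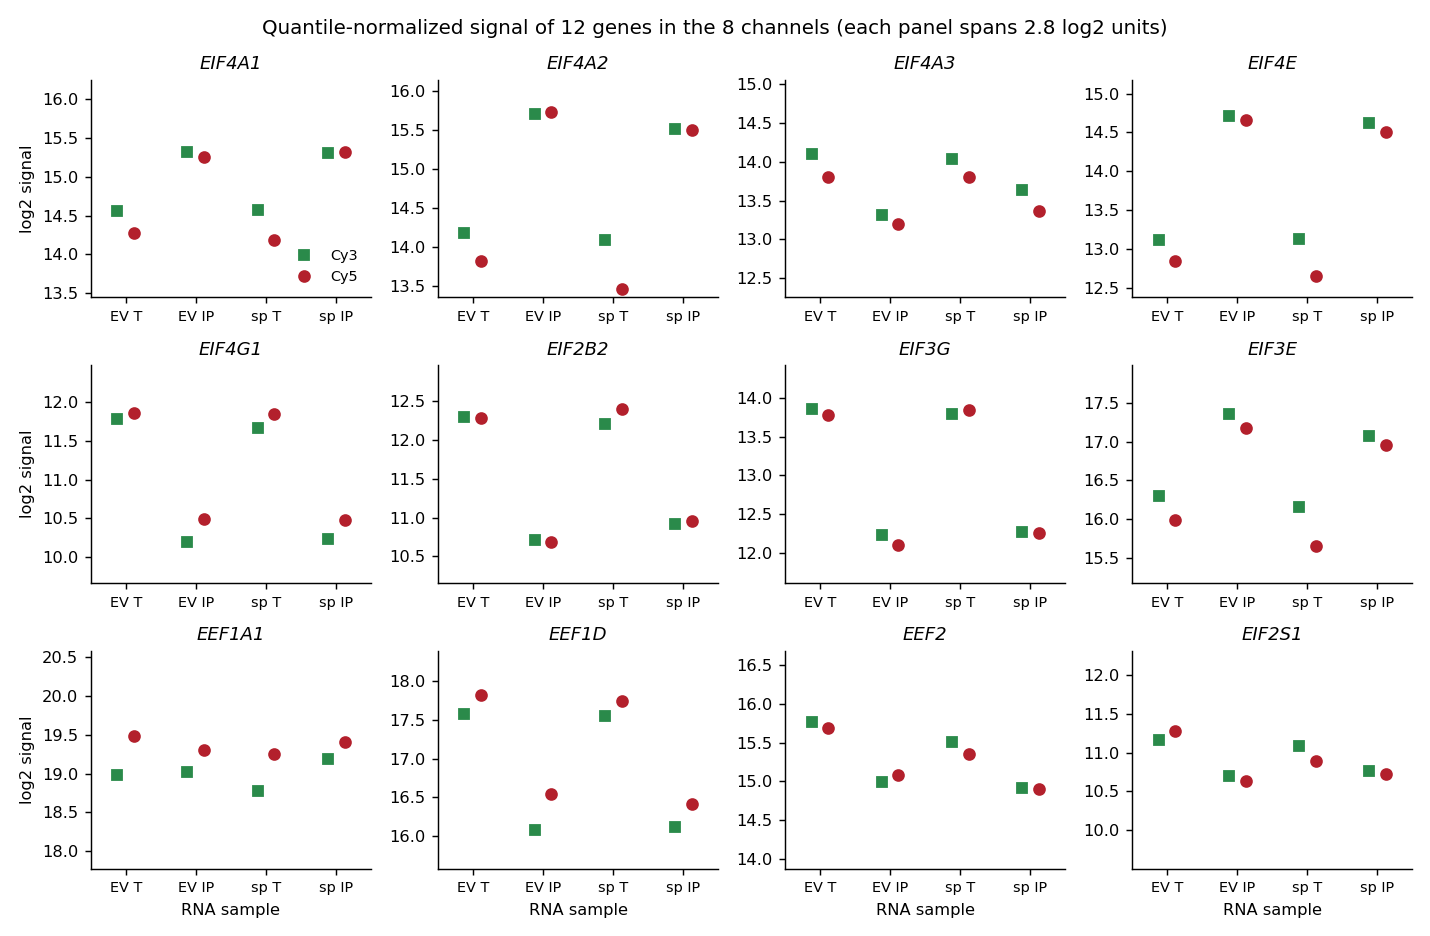
Quantile-normalised log2 signal (vertical axis) of 12 genes, 1 probe each, in EV T, EV IP, sponge T and sponge IP (horizontal axis, sp for sponge). Squares are Cy3 and circles Cy5. Each panel has its own axis of the same span, since levels of different probes are not comparable. IP lies above T in EIF4A1, EIF4A2, EIF4E and EIF3E and below T in EIF4A3, EIF4G1, EIF2B2, EIF3G, EEF1D, EEF2 and EIF2S1.

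The 5 subunits of eIF2B, the factor that exchanges GDP for GTP on eIF2, all had more signal in T than in IP in both dye orientations of EV and of sponge cells. IP/T below 1 in both orientations was seen for 50.5% of all genes in EV cells and for 48.1% in sponge cells. The 5 genes had an EV median of -0.99 ± 0.10 and a sponge median of -0.79 ± 0.02. EIF2B2 was lowest, with signals of 12.30 and 12.28 in EV T, 10.71 and 10.69 in EV IP, 12.21 and 12.40 in sponge T, and 10.91 and 10.96 in sponge IP. Both dyes gave nearly the same EV gap, a T/IP ratio of 3.00 (log2 IP/T -1.58 ± 0.03). EIF2B3 (-1.02 ± 0.13), EIF2B4 (-0.99 ± 0.02) and EIF2B5 (-0.97 ± 0.13) formed a close group whose values did not differ beyond their spread, and EIF2B1, the regulatory alpha subunit, was nearest to equal at -0.67 ± 0.06. With normexp, loess and Aquantile the EV median was -0.67.

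The substrate of eIF2B, eIF2, was split by subunit. EIF2S1, the alpha subunit that stress kinases phosphorylate, was at -0.55 ± 0.04 and EIF2S2, the beta subunit, at -1.01 ± 0.03, whereas EIF2S3, the gamma subunit that binds the tRNA, was at 0.93 ± 0.23 in EV cells. EIF2S3 signals were 10.12 and 9.97 in EV T, 11.06 and 10.88 in EV IP, 10.38 and 10.02 in sponge T, and 10.86 and 10.80 in sponge IP, with IP above T in both populations. For EIF2S1 and EIF2S2 the subunit comparison depended on the probe, since a second, dimmer probe gave 0.58 ± 0.09 and 0.30 ± 0.10. EIF2A and EIF2D, which can deliver initiator tRNA without eIF2, were at 0.40 ± 0.13 and -1.03 ± 0.08. The EIF2D value, from a dim probe, was -0.43 after normexp, loess and Aquantile.

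Of the 13 genes of the eIF3 complex, the scaffold on the small subunit, 10 had T above IP in both orientations in EV cells (50.5% of all genes did) and 2 had IP above T (39.4% did), with a median of -0.56 ± 0.27. In sponge cells 7 had T above IP (48.1% of all genes did) and 3 had IP above T (38.8% did). The sponge median of -0.26 ± 0.33 was within its spread. EIF3G, a subunit with an RNA recognition motif, was the lowest of all 57 genes. Its signals were 13.85 and 13.78 in EV T, 12.23 and 12.11 in EV IP, 13.79 and 13.84 in sponge T, and 12.27 and 12.26 in sponge IP. T was 3.12-fold above IP in EV cells (log2 IP/T -1.64 ± 0.13), well outside the dye spread. EIF3I followed at -1.35 ± 0.28, EIF3L at -1.18 ± 0.06 and EIF3D, a subunit able to bind the cap, at -1.15 ± 0.11. EIF3E stood apart at the other end, with 16.30 and 15.99 in EV T, 17.35 and 17.17 in EV IP, 16.16 and 15.65 in sponge T, and 17.07 and 16.95 in sponge IP. IP exceeded T in every labelling, and the EV ratio was 2.17 (log2 1.12 ± 0.34). The 3 EIF3E probes ran from 0.42 to 1.12. Between these ends lay EIF3B (-0.98 ± 0.15), EIF3A (-0.61 ± 0.38), EIF3H (-0.56 ± 0.25), EIF3M (-0.31 ± 0.20), EIF3F (-0.17 ± 0.05), EIF3C (-0.10 ± 0.05), EIF3K (0.25 ± 0.18) and EIF3J (0.35 ± 0.58). EIF3C has the near-identical neighbour EIF3CL, for which no probe was named, so that its signal may come from either.

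Scanning factors were close to equal. Their 6 genes had a median of 0.14 ± 0.27 in EV cells, and no gene passed 2-fold. EIF1B exceeded EIF1, its close paralog in start codon selection, by 0.55 ± 0.34 in EV cells and 0.36 ± 0.13 in sponge cells. EIF1B was at 0.77 ± 0.02, EIF5 at 0.37 ± 0.19, EIF1 at 0.22 ± 0.35, EIF1AX at 0.07 ± 0.45 and EIF5B, the GTPase of subunit joining, at -0.40 ± 0.14. The 3 EIF1AX probes ran from 0.07 to 0.83. EIF6, which keeps large subunits from joining, was at -1.04 ± 0.03, with 14.75 and 14.77 in EV T and 13.70 and 13.73 in EV IP. EIF5A, the hypusine-bearing factor that helps ribosomes through difficult stretches, was at -0.17 ± 0.12. By the brightest probe of each gene, its paralog EIF5A2 was higher by 0.72 ± 0.25 in EV cells. In sponge cells it was higher by 0.40 ± 0.44, which is within the spread. The dimmer EIF5A2 probe, A_24_P380022, had larger IP/T ratios, 2.83 in EV and 2.67 in sponge cells, both past 2-fold. How far EIF5A2 exceeded EIF5A therefore depended on the probe.

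Among elongation factors, the subunits of the eEF1 complex were not alike. EEF1D, a subunit of the nucleotide exchange factor for eEF1A, had signals of 17.58 and 17.82 in EV T, 16.08 and 16.55 in EV IP, 17.55 and 17.74 in sponge T, and 16.12 and 16.42 in sponge IP. T was above IP in all labellings, 2.61-fold in EV cells (log2 IP/T -1.39 ± 0.50), and all 7 EEF1D probes were on that side, from -2.38 to -1.38. EEF1B2, another exchange subunit, was at -0.57 ± 0.18 and EEF1G, the structural subunit, at 0.20 ± 0.47. EEF1A1, which carries aminoacyl-tRNA, was at -0.07 ± 0.55 in EV cells, an error larger than the value, and with scaling to the 75th percentile it was at 0.48. Its probes may also bind transcripts of the many EEF1A1 pseudogenes, 50 of which the RefSeq table lists. EEF2, the translocase, was at -0.69 ± 0.01, with 15.77 and 15.69 in EV T and 14.99 and 15.08 in EV IP. EEF1E1, a scaffold partner of the tRNA synthetases, was the highest at 0.66 ± 0.02. EEF1A2, the form of muscle and neurons, had no probe that passed the filters.

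The remaining symbols are enzymes that modify elongation factors and EIF1AD, named for a domain like that of eIF1A. EEF2K, the kinase that inhibits eEF2, was at -0.49 ± 0.09 and EEF2KMT, its lysine methyltransferase, at -0.73 ± 0.02. The methyltransferases of eEF1A ran from -1.02 ± 0.67 for EEF1AKMT3 and -0.90 ± 0.19 for EEF1AKMT1 to 0.43 ± 0.07 for EEF1AKMT2 and 1.06 ± 0.23 for EEF1AKMT4. The EEF1AKMT3 value, also dim, was -0.18 after normexp, loess and Aquantile. The read-through gene EEF1AKMT4-ECE2 had no kept probe. EIF1AD had the highest ratio of all 57 genes, 3.93 in EV cells (log2 1.97 ± 0.21), with 10.93 and 11.17 in EV T, 12.99 and 13.05 in EV IP, 10.80 and 11.14 in sponge T, and 12.57 and 12.71 in sponge IP. The IP labellings were far above the T labellings in both populations, but this held for 1 of its probes only.

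Probes of the same gene set a limit to gene-level statements. Of the 57 genes, 27 had more than 1 kept probe, and the median gap between the highest and lowest log2 IP/T of a gene was 0.41 in EV cells. In 6 genes the gap was over 2-fold, with EEF1D only just past it. Such gaps were not computed for the other genes on the array, so whether these are unusual is not known. For EIF1AD it was 9.39-fold and crossed 0, from -1.26 ± 0.18 for probe A_23_P127467 to 1.97 ± 0.21 for probe A_32_P749354. It also crossed 0 for EEF1AKMT3, EIF2S2 and EIF2S1, by 2.65-, 2.48- and 2.19-fold. In EIF4E, at 0.98, 1.71 and 2.18, and in EEF1D the probes differed in size and not in side. Which part of a transcript each probe reads was not analysed here.

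**Figure D3:**
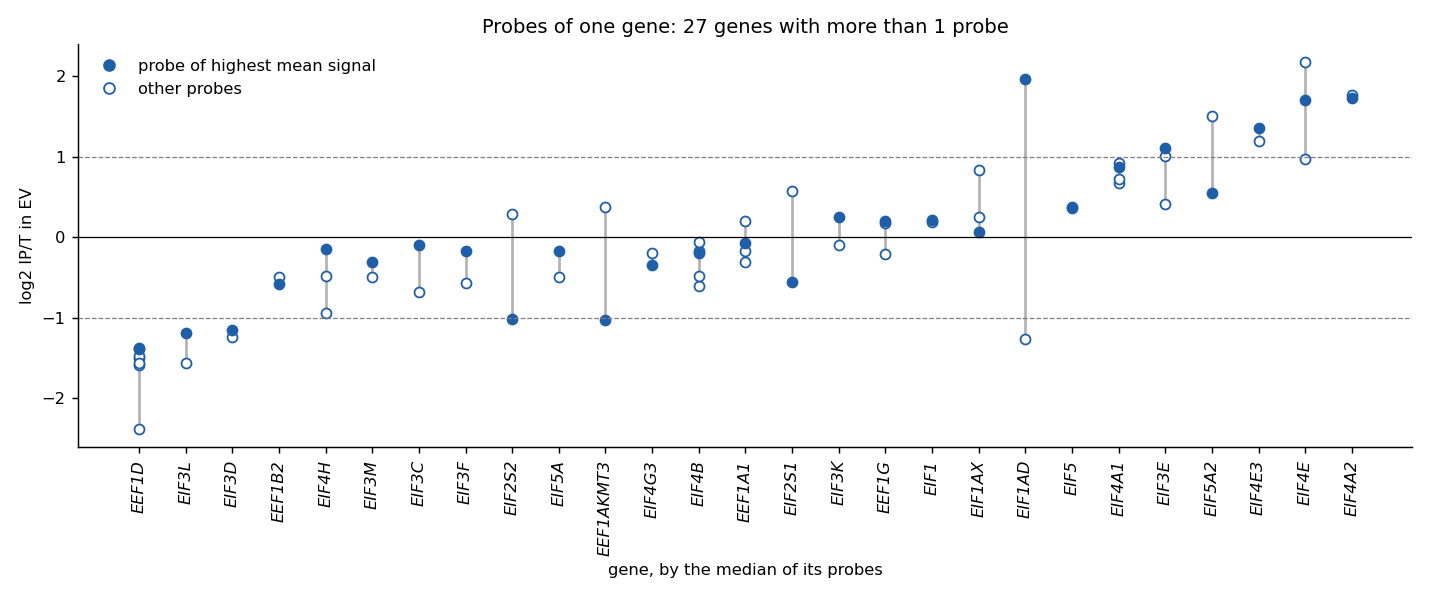
Log2 IP/T ratio in EV cells (vertical axis) of each kept probe of the 27 genes with more than 1, ordered by the median of the gene's probes. Filled points are the probe of highest mean signal, open points the others, grey lines span a gene and dashed lines mark 2-fold. EIF1AD has the widest span, from -1.26 to 1.97, while both EIF4A2 probes lie at 1.73 and 1.77.

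Between sponge and EV cells the translation factors differed little in size. In T, 1 of 101 member probes was lower by 1.5-fold or more in sponge cells with the same sign in both dyes, where 1.56% of all kept probes were, and none was higher, where 1.37% were. That probe, A_24_P398810 for EIF5, was dim and gave -0.76 ± 0.34, while the brighter EIF5 probe was at 0.05 ± 0.14. In IP no member probe was 1.5-fold apart in either direction, against 0.859% higher and 0.645% lower over all kept probes. At 1 probe per gene no member reached 1.5-fold, where 1.09% of all genes were higher and 0.884% lower in T and 0.625% were higher and 0.384% lower in IP. The sign of the small differences in T was less even. Of the 101 probes, 64 were lower in sponge T in both dyes (63.4%, against 33.4% of all kept probes) and 14 were higher (13.9%, against 28.7%), and the member median was -0.11 ± 0.09 against -0.02 over all kept probes. At 1 probe per gene, 32 of 57 genes were lower in both dyes (31.8% of all genes were) and 9 were higher (29.4% were), with a median of -0.08 ± 0.07. A stricter reading, in which both sponge T labellings lie below both EV T labellings, held for 14 of 57 genes and for 17.1% of all genes, and the reverse for 3 genes and 15.6% of all genes. Sponge T in Cy5 was the channel with the fewest spots above background. In Cy5 the member probe median was -0.21, and without that dye, in Cy3 alone, it was -0.07. The part of that channel in the difference was not tested.

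The members known as TOP messengers had a lower median difference in sponge T than the other members did. The list of 9 members taken from general knowledge as TOP messengers holds EEF1A1, EEF1B2, EEF1D, EEF1G, EEF2, EIF3E, EIF3F, EIF3H and EIF4B. It was chosen with earlier results of these data known, so it is not independent of them. In T, 8 of these 9 genes were lower in sponge cells in both dyes (31.8% of all genes were), and their median was -0.21 ± 0.06, while the 48 other members had a median of -0.07 ± 0.07 with 24 lower in both dyes. The TOP median was -0.16 in Cy3 alone and -0.26 in Cy5 alone, and it was -0.13 with scaling to the 75th percentile. Both sponge T labellings lay below both EV T labellings for 3 of the 9. The 83 cytosolic ribosomal protein genes, which also carry TOP leaders, had a median of -0.07 ± 0.05 in T, near that of the other members, with 34 of 83 lower in both dyes. Differences between these lists were not tested.

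**Figure D4:**
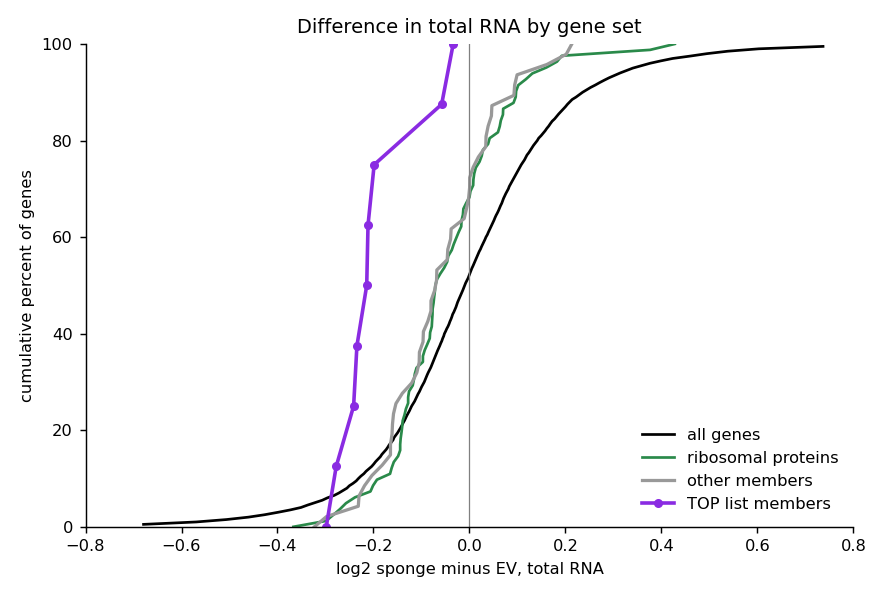
Cumulative percent of genes (vertical axis) against the log2 difference of sponge minus EV in T (horizontal axis), 1 probe per gene. The 9 TOP list members (violet) lie between -0.30 and -0.03 with a median of -0.21, against -0.07 for the 48 other members and for the ribosomal protein genes and -0.01 for all genes.

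EEF2 had signals of 15.77 and 15.69 in EV T and 15.51 and 15.35 in sponge T, so that both sponge labellings were lower, with a difference of -0.30 ± 0.05. EIF3F had 15.38 and 15.31 in EV T and 15.10 and 15.03 in sponge T, a difference of -0.28 that was the same in both dyes to 2 decimals. EIF3E differed by -0.24 ± 0.14, EEF1B2 by -0.23 ± 0.10, EEF1A1 by -0.21 ± 0.01, EEF1G by -0.21 ± 0.06 and EIF3H by -0.20 ± 0.08. EEF1D at -0.06 ± 0.04 and EIF4B at -0.03 ± 0.05 were the smallest of the list by the brightest probe of each gene. The 5 EIF4B probes ran from -0.44 to -0.03 and the 7 EEF1D probes from -0.25 to 0.04. By its brightest probe EEF1D was at 0.02 with scaling to the 75th percentile. The 4 EEF1A1 probes gave -0.45 to -0.21 in T. None of these 9 genes reached 1.5-fold.

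The RefSeq transcription start windows (GRCh38.p14) of 48 member genes were read for the TOP motif, taken as a C at the first base followed by at least 4 bases that are each C or T, on the transcribed strand. The motif was at a start of 12 of these genes (25.0%), against 5.14% of all genes with a window, and 12 of 64 member windows (18.8%) against 4.07% of all 35116 windows. Ribosomal protein genes had it in 47 of 68 (69.1%). Of the TOP list, 5 of the 6 genes with a window had it. The windows below run from 10 bases before the start to 20 bases from it, and capitals mark the run of pyrimidines that begins at the start. The first 6 are shown because they hold the motif.
EEF1A1: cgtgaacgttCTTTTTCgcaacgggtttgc
EEF1B2: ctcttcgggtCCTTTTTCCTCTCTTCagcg
EEF2: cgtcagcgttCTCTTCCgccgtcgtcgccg
EIF3F: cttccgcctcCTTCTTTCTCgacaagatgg
EIF4B: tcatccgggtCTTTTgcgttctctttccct
EIF4A2: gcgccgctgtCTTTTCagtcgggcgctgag
These lie at chr6:73521013-73521042 (minus strand) for EEF1A1, chr2:206159885-206159914 (plus) for EEF1B2, chr19:3985444-3985473 (minus) for EEF2, chr11:7987327-7987356 (plus) for EIF3F, chr12:53006446-53006475 (plus) for EIF4B and chr3:186783567-186783596 (plus) for EIF4A2. The next 4, from genes at the ends of the IP/T range and EIF4A3, are shown for contrast and have no such run.
EIF2B2: cgcccgccccggaagtgcaaactgtgtggt
EIF4E: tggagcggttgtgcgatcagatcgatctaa
EIF4A3: cggcagcggcacagcgaggtcggcagcggc
EIF3I: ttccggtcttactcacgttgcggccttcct
Their positions are chr14:75002911-75002940 (plus) for EIF2B2, chr4:98929114-98929143 (minus) for EIF4E, chr17:80147109-80147138 (minus) for EIF4A3 and chr1:32222397-32222426 (plus) for EIF3I. The 12 genes with the motif had a median sponge minus EV difference in T of -0.19 ± 0.11, and the 35 kept genes with a window and no motif had -0.07 ± 0.07. For the 7 motif genes outside the TOP list the median was -0.16 ± 0.13, with 4 lower and 2 higher in both dyes. In Cy3 alone their median was -0.03, against -0.02 for the genes with a window and no motif. In Cy5 alone it was -0.22, against -0.11. Differences between these groups of genes were not tested. A match is a description of the annotated start, and the start used in L1236 cells was not measured.

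Outside the TOP list, EIF3L was the lowest in sponge T, with 15.73 and 15.69 in EV T and 15.47 and 15.30 in sponge T, a difference of -0.32 ± 0.09 in which the labellings did not overlap. EIF2D followed at -0.30 ± 0.12. The highest with the same sign in both dyes were EEF1AKMT3 at 0.21 ± 0.30, EEF1AKMT4 at 0.20 ± 0.02 and EIF2S3 at 0.16 ± 0.15. EEF1AKMT4 had 13.56 in both dyes of EV T and 13.75 and 13.78 in sponge T, a gap larger than its dye spread. EEF1AKMT3 rests on 1 probe, since the other gave -0.52.

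In the Ago2-bound RNA the differences were small, and their balance depended on whether probes or genes were counted. The median log2 difference of sponge minus EV in IP was -0.03 ± 0.01 over probes and 0.01 ± 0.02 over genes, against 0.01 over all kept probes, and 33 probes were higher (32.7%, against 37.9% of all kept probes) and 46 lower in both dyes (45.5%, against 35.7%). At gene level 20 of 57 were higher and 20 lower in both dyes (37.7% and 36.4% of all genes). The lowest were EIF1AD at -0.38 ± 0.06, EIF4ENIF1 at -0.30 ± 0.10 and EIF3E at -0.25 ± 0.03. For EIF4ENIF1 both sponge IP labellings lay below both EV IP labellings. The highest were EIF2S2 at 0.25 ± 0.02, EIF5B at 0.24 ± 0.02 and EIF4A3 at 0.24 ± 0.11. EIF2S2 had 11.94 and 11.99 in EV IP and 12.17 and 12.26 in sponge IP. The EIF1AD and EIF2S2 values rest on the brightest probe, since the other kept probe of each had the opposite sign in both dyes. The TOP list had a median of -0.06 ± 0.01 in IP.

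**Figure D5:**
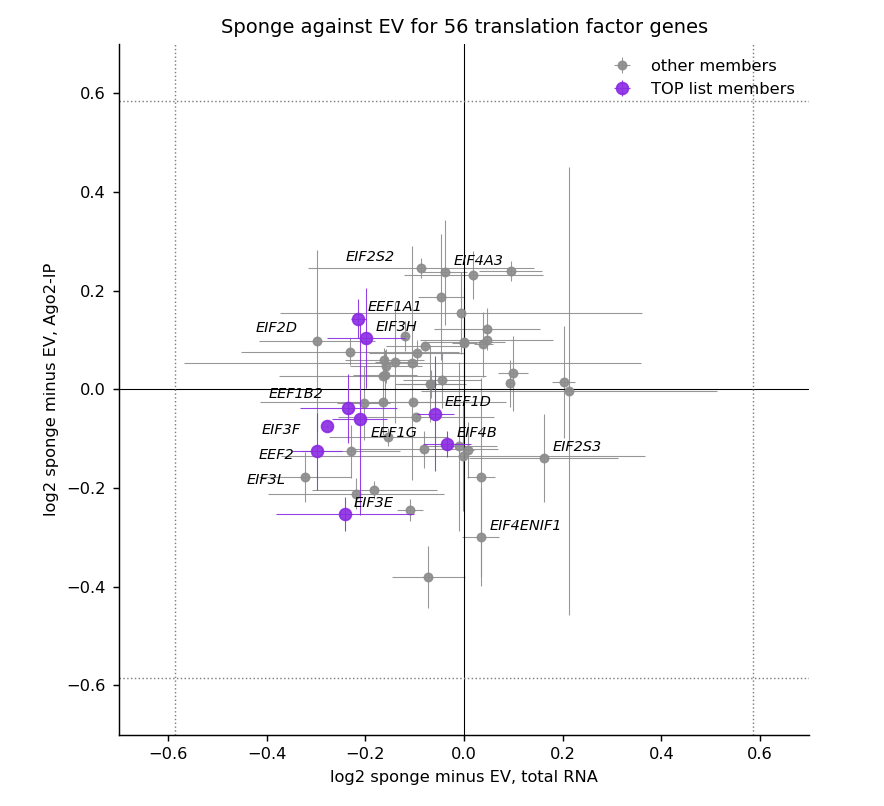
Log2 difference of sponge minus EV in T (horizontal axis) and in IP (vertical axis) for 56 translation factor genes, 1 probe per gene. Points are means over both dyes, bars are the SD over dyes, violet marks the TOP list and dotted lines mark 1.5-fold. All 9 TOP genes lie left of 0 and none of the 56 genes passes 1.5-fold on either axis.

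The change in log2 IP/T from EV to sponge cells is the IP difference minus the T difference, so it carries the same channels again. Over member probes its median was 0.11 ± 0.08, against 0.02 over all kept probes, and with only Cy3 labels it was 0.05. One probe, A_24_P720202 for EIF4H, had a change of 1.5-fold or more (0.70 ± 0.24), where 1.67% of all kept probes were higher and 1.34% lower, and the 2 other EIF4H probes gave 0.09 and 0.10. Of the probes, 53 had a higher ratio in sponge cells in both orientations (35.1% of all kept probes did) and 18 a lower one (28.8% did). At gene level 28 of 57 genes had a higher ratio in sponge cells in both orientations (33.7% of all genes did) and 12 a lower one (29.8% did). All 5 eIF2B genes were among the 28, with changes of 0.18 to 0.23. The errors of EIF2B1 (0.19 ± 0.21), EIF2B2 (0.21 ± 0.19), EIF2B3 (0.23 ± 0.17) and EIF2B5 (0.18 ± 0.13) were of the order of the values, and that of EIF2B4 (0.21 ± 0.04) was smaller. EIF2S1 (0.31 ± 0.19), EIF2S2 (0.33 ± 0.21) and EIF2D (0.40 ± 0.30) were also among the 28, again with errors of the order of the values. The gamma subunit of eIF2, EIF2S3, went the other way at -0.30 ± 0.06. With EIF4ENIF1 (-0.33 ± 0.06) and EIF1AD (-0.31 ± 0.14) it had the largest change among the 12 with a lower ratio. EEF1A1 had a change of 0.36 ± 0.06, and its 4 probes had 0.25 to 0.45. At 1 probe per gene none reached 1.5-fold in this measure, where 1.01% of all genes were higher and 0.973% lower.

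Other genes of the translation machinery, which are no members, were read beside them, and with so few genes the shares are a description only. The 34 kept genes were for poly(A)-binding proteins, release factors, kinases, 4E-BPs and mitochondrial factors. In EV cells 4 of them had an IP/T ratio of 2 or more, where 18.1% of all genes did. These were MKNK2, a kinase of the cap-binding protein, at log2 3.53, EIF4EBP2, its inhibitor, at 3.12, the mitochondrial initiation factor MTIF3 at 2.30 and PAIP1, a partner of poly(A)-binding protein, at 1.14. Other probes of MKNK2 (1.34 and 2.00), EIF4EBP2 (1.31) and PAIP1 (0.48) gave smaller values on the same side. The 3 with a T/IP ratio of 2 or more, where 18.8% of all genes had one, were TUFM, the mitochondrial elongation factor, at -1.78, TPT1 at -1.66 and EEFSEC, the selenocysteine elongation factor, at -1.06. In sponge T, 21 of the 34 were lower in both dyes (31.8% of all genes were), with a median of -0.12 ± 0.09. The proteasome, taken as another large housekeeping complex with 37 kept genes, had an EV median of -0.41 ± 0.08 for log2 IP/T, and its median sponge minus EV difference in T was -0.06 ± 0.11.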

How the data were processed

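L1236 RNA from 4 samples (EV T, EV IP, sponge T and sponge IP) was measured on 4 two-colour Agilent 44k arrays. The deposited scanner files hold intensity values extracted by the authors with Agilent Feature Extraction (10.7.3.1 per the file headers, 10.5.1.1 per the submitters' processing notes), background-subtracted and dye-normalised, and each array was deposited under both of its samples. A deposited series table holds the authors' quantile-normalised log2 values of 22282 probes, made per the study's methods in GeneSpring GX 12.5. It contained all 101 kept members.

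Control spots and outlier-flagged spots were removed, spots of a probe were averaged as log2, and the 8 channels were quantile normalised (limma 3.58.1, R 4.3.3). A probe was kept if well above background in at least 4 of 8 channels and if Cy3 and Cy5 differed by at most 2-fold in each sample. Of 109 member probes, 6 were under the detection minimum, 1 lacked a value and 1 failed the dye filter. Accessions were named through RefSeq (GRCh38.p14), used for names and start windows only, because the array annotation follows hg18. Of 41000 probes, 23958 were named. No probe was named here for EEF1AKNMT, EIF2S3B, EIF3CL, EIF4E1B and EIF5AL1. EIF1AY was counted and its level is not printed.

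Both labellings of an RNA are 1 technical sample, so no test was run, and precision is limited by the array number. IP/T is the mean over both dye orientations. A difference between populations was counted at 1.5-fold with the same sign in both dyes. Members, role lists and the TOP list were chosen with earlier results of these data known. Named genes were the 5 highest and 5 lowest in EV IP/T, the 3 highest and 3 lowest in sponge minus EV, paralog pairs, the ends of each role list and genes whose probes differ by over 2-fold. EIF5 and EIF4H probes past 1.5-fold, and other members given by value, were named after their values were seen. The calculations were tested on simulated data. Alternatives were normexp (offset 50) with loess and Aquantile, normexp with quantile normalisation, scaling to the 75th percentile, the authors' table, other filters, single dyes or orientations, 1 probe per gene, and outlier spots kept. The IgG control of the precipitation was not analysed here.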

Additional observations from a re-analysis of the deposited data

Results flagged for a closer look

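A few named genes had opposite signs in both labellings of one comparison and of its counterpart. None of these differences was tested, and each is small. For EIF4ENIF1 the EV log2 IP/T was 0.23 and the sponge value -0.10, although the latter was 0.026 with normexp, loess and Aquantile and 0.072 with only Cy5 labels. Its sponge minus EV difference was 0.034 in T and -0.30 in IP. EIF2S3 was at 0.16 in T and -0.14 in IP. EIF4A3 was the reverse, at -0.039 in T and 0.24 in IP. EEF1A1 was at -0.21 in T and 0.14 in IP, EIF2B1 at -0.16 and 0.028, and EIF2S1 at -0.23 and 0.077. For EEF1A1 and EIF2S1 the opposite signs rest on the brightest probe. The 4 EEF1A1 probes ran from -0.20 to 0.14 in IP, and the other EIF2S1 probe was lower in sponge IP in both dyes.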

How the results depend on the processing

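Of the 30 IP/T values of named genes past 2-fold, in EV or sponge cells, none changed sign under any alternative that kept the probe. Fewest stayed past 2-fold with normexp, loess and Aquantile (19 of 28), normexp and quantile normalisation (21 of 30) and only the arrays with IP in Cy5 (22 of 30). With 1 probe per gene the 101 member probes became 57, EV counts of IP/T and T/IP of 2 or more became 7 and 12, and sponge counts 5 and 8, because fewer probes were counted. With normexp and quantile normalisation, which kept 25608 probes in all, IP/T of 2 or more was counted for 7 EV and 6 sponge member probes. Apart from 1 probe per gene, shares over all kept probes were not computed under the alternatives, so these counts have no background beside them. The member EV median of log2 IP/T was -0.22 with normexp and quantile normalisation and -0.20 with a dye filter of 1.5-fold. The cause was not tested. The single EIF5 probe at 1.5-fold in T became 0 with normexp and quantile normalisation, with detection in all 8 channels, with a dye filter of 1.5-fold or with 1 probe per gene, and 2 without a dye filter. The sponge minus EV median in IP was -0.011 with normexp and quantile normalisation and changed sign to 0.012 with 1 probe per gene. The TOP list median in T was -0.13 with 75th percentile scaling, and alternatives for this list were chosen after seeing the data. The list of modifying enzymes changed sign in IP/T, to 0.38 in EV and 0.51 in sponge cells with a dye filter of 1.5-fold, which removes genes from it, and to 0.021 in sponge cells with normexp, loess and Aquantile.

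With single labels the EV median of log2 IP/T was -0.20 in Cy3 and -0.15 in Cy5, and -0.24 and -0.21 from arrays of one orientation. The member median in T was -0.074 without and -0.21 with only the Cy5 labels. The number of member probes at 1.5-fold there ran from 0 to 3, again without a share over all kept probes. No paired analysis was possible because each group is 1 RNA sample, the numbers mark dyes, and no value comes from a test. The alternative that takes symbols from a gene name column was not run, since the scanner files used here hold no such column. In EV IP/T the dim probes of EIF4E3 and EEF1AKMT3 moved by over 1.5-fold under both alternatives with normexp, and that of EIF2D with loess and Aquantile, and the cause was not tested.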
